A study of Mus musculus with 22 samples.

Results

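Trp53 and 9 genes known as direct targets of the protein it encodes were followed through every group of the series: Cdkn1a, Mdm2, Ccng1, Trp53inp1, Bbc3, Bax, Pmaip1, Gdf15 and Phlda3. They were chosen by name and are 10 of the 55487 genes listed. All 10 passed the filter on low values in both tables, so none dropped out.

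Poly(A) RNA had been sequenced from Dux-/- mouse embryonic stem cells maintained in 2iLIF, each line carrying an mCherry-tagged transgene whose expression is switched on by doxycycline. Every group used here received 0.25 ug/mL doxycycline for 12 hours, the tag-only control included, so all carry the Dux deletion and the drug. A recovery period is also listed, of the same length in every group, so the 12 hours of drug are not the whole schedule. The values come in 2 tables that were scaled separately. The chimera table holds FL (full-length DUX fused to mCherry), C3+14, C1C3a, C1C3b, C1C3c, C1+14 and mCherry alone. The deletion table holds the same FL libraries with C12345delt14, deltC12345+14 and deltC12345delt14. Each group has 2 libraries, which gives 20 libraries in 10 groups. The labels do not define C1 to C5, 14 or the letters a, b and c (delt is read here as a deletion). They do not say whether a line is 1 clone, or whether replicates came from separate cultures. The p-values therefore measure only the spread between these libraries, pooled over the groups of a table.

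p53, the product of Trp53, is a transcription factor that is held at a low level by the ubiquitin ligase Mdm2 and is released when DNA is damaged or cells are otherwise stressed. It then switches on genes that stop the cell cycle, genes that promote apoptosis, and Mdm2 itself, which closes a feedback loop. Because most of this control acts on the protein, the level of Trp53 mRNA is not a measure of p53 activity. In mouse embryonic stem cells p53 is also known for acting upstream of Dux, the gene deleted here.

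p53 binds a pair of adjacent half-sites, and the stretches below are shown because 4 of the members carry a match to that consensus just before an annotated start. RefSeq windows (GRCm38.p6) of 250 bases before to 50 bases after the start were found for 8 members, in 12 windows, with none for Trp53inp1 and Pmaip1. They were searched for the p53 consensus, 2 half-sites of 10 bases each with no spacer, with the C and G of both cores required. The consensus reads the same on both strands. A match with at most 1 mismatch was present in 0.067% of all 32851 windows and one with at most 3 mismatches in 1.38%. Each line gives 60 bases in the direction of the gene with the 20-base match in capitals.
Ccng1: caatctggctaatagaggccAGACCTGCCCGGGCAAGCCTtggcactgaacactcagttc
Cdkn1a: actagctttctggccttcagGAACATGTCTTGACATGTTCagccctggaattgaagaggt
Bbc3: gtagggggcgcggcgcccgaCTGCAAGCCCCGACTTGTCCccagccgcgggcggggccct
Trp53: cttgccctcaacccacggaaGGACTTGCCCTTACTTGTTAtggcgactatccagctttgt

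The Ccng1 stretch lies at chr11:40755442-40755501 on the minus strand and its match, with 1 mismatch, begins 195 bases before the start. The Cdkn1a stretch lies at chr17:29090908-29090967 on the plus strand and its match, with 1 mismatch, begins 51 bases before the start. The matches of Bbc3 (chr7:16309466-16309525, plus strand) and Trp53 (chr11:69580264-69580323, plus strand) have 3 mismatches each and begin 97 and 75 bases before the start. In GENCODE M21 the Bbc3 stretch is inside the gene but in no exon, so it is intronic to the longest gene model, and the other stretches overlap no gene. A match describes letters only; no binding was measured, and p53 sites known to lie further away, such as those in the first intron of Mdm2, are outside these windows.

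The lines expressed stem cell markers throughout. The summed level of 10 embryonic stem cell markers was 1565 to 6737 CPM (reads scaled to the library total), with none at or below 3 reads in any library, and 10 fibroblast markers summed to 4.50 to 34.5 CPM with 1 to 6 of them at or below 3 reads. For 10 markers of the 2-cell embryo the sum was 0.032 to 0.042 CPM in mCherry, 0.454 to 1.12 in C1+14, 83.7 to 90.6 in C1C3c, 1247 to 1696 in C1C3b, 31893 to 39011 in C1C3a, 42502 to 44987 in C3+14 and 52136 to 76320 in FL. The endogenous Dux copies Duxf3 and Gm4981 had 0 reads in every library, FL included, so they check neither the deletion nor the transgene. Library totals were 21059953 to 40448890 reads. The libraries also fall into 2 kinds by the share of reads in 1613 genes of highly repeated sequence, 1.66% to 2.57% in 14 libraries and 0.295% to 0.419% in 6. The second kind comprises both C3+14 and both mCherry libraries, replicate 2 of deltC12345+14 and replicate 1 of deltC12345delt14, so that kind and construct cannot be told apart in the comparison of mCherry, or of C3+14, with any of the other 5 constructs of the chimera table.

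Full-length DUX was set against mCherry first, a comparison in which construct and library kind cannot be told apart. Of the 10 members, 7 were lower in FL (Cdkn1a, Mdm2, Ccng1, Trp53inp1, Bbc3, Gdf15 and Phlda3), 1 was higher (Pmaip1), and Trp53 and Bax did not pass the test. A gene was called when limma, two-sided on log2(normalised reads + 1), gave a Benjamini-Hochberg adjusted p under 0.05 over all genes of the table and the log2 fold change was 1 or more in either direction. By the same rule 44.2% of the 21584 genes tested were called, 24.5% higher and 19.6% lower (55.5% of all calls higher, or 41.2% after quantile normalization), so the count of 8 among 10 members is to be read against a transcriptome that differed widely. The median log2 fold change of the members was -1.51, against 0.09 for all genes tested. In bulk RNA, fewer cells expressing a gene and less of its RNA per cell cannot be told apart.

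**Figure D1:**
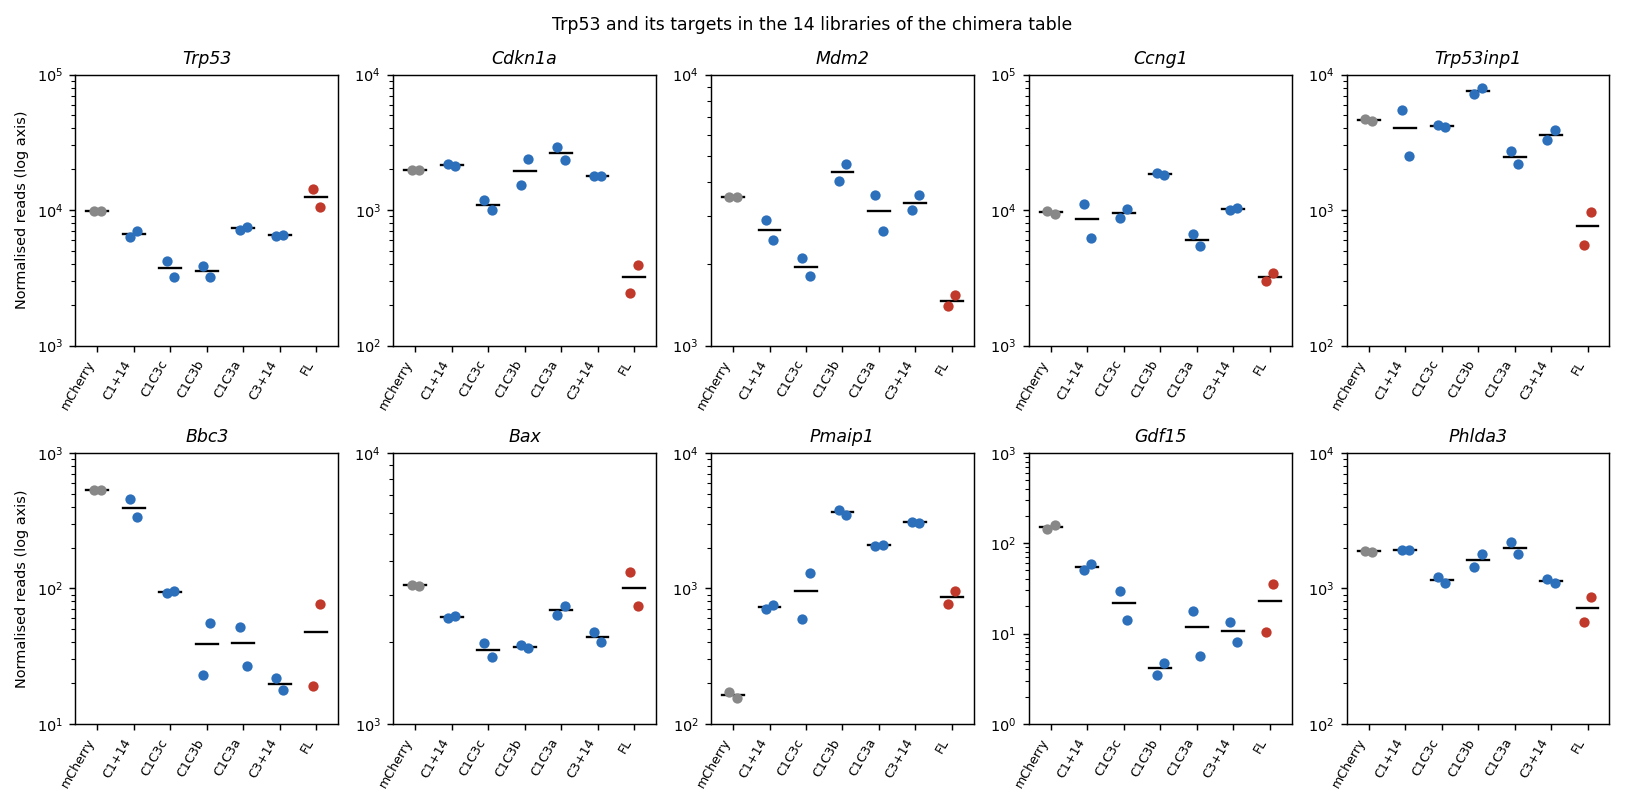
Normalised reads (log axis) of Trp53 and its 9 targets in the 14 libraries of the chimera table; each point is 1 library and each line a group mean. The FL libraries are the lowest of all groups for Cdkn1a, Mdm2, Ccng1, Trp53inp1 and Phlda3, and the mCherry libraries are the lowest for Pmaip1.

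Trp53 (chr11:69580359-69591873, plus strand) had 14229.7 and 10573 normalised reads in FL and 9808 and 9909 in mCherry. The FL libraries were both above the mCherry libraries, but the log2 fold change of 0.32 ± 0.16 (SE) did not pass the test (limma, adjusted p = 0.0959). Trp53 was lowest in C1C3b, at 3873 and 3202 normalised reads, and in C1C3c, at 4222 and 3229. These were the only constructs of this table in which Trp53 was called against mCherry, and it fell by 1.48 ± 0.16 in C1C3b (limma, adjusted p = 3.62e-06) and by 1.42 ± 0.16 in C1C3c (adjusted p = 1.42e-05) on the log2 scale. C3+14 had 6466 and 6529, C1C3a 7157 and 7534, and C1+14 6368 and 6966 normalised reads. These 3 groups lay below mCherry without reaching the fold threshold, at log2 fold changes of -0.60, -0.42 and -0.57. In the order of group means, FL was first, followed by mCherry, C1C3a, C1+14, C3+14, C1C3c and C1C3b, and no group was called different from its neighbour. Some steps missed a call only by the fold threshold. C3+14 was above C1C3c by 0.82 ± 0.16 (limma, adjusted p = 0.000664), and mCherry above C1C3a by 0.42 ± 0.16 (adjusted p = 0.0292).

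Mdm2 (chr10:117688875-117710758, minus strand), the ligase that marks p53 for degradation, had 1398 and 1531 normalised reads in FL and 3522 and 3524 in mCherry. It fell by 1.27 ± 0.15 on the log2 scale (limma, adjusted p = 1.1e-05), a level 2.41-fold lower by the ratio of means. The other constructs covered a range with no call against mCherry: C1C3b had the highest libraries of the table, 4061 and 4657, and C1C3c the lowest after FL, 2096 and 1809. Mdm2 in C1C3c was thus 0.85 ± 0.15 lower than in mCherry on the log2 scale, short of the fold threshold. C3+14 with 3158 and 3581, C1C3a with 3604 and 2653 and C1+14 with 2903 and 2448 normalised reads lay between them. Mdm2 was higher in C1C3b than in C1C3c, by 1.16 ± 0.15 (limma, adjusted p = 0.00022), against 11.2% of all genes called between these groups, while Trp53 differed by -0.07 ± 0.16 between them (adjusted p = 0.808).

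Cdkn1a (chr17:29090976-29100727, plus strand) encodes p21, an inhibitor of cyclin-dependent kinases that arrests the cell cycle. It had 246 and 395 normalised reads in FL and 1989 and 1984 in mCherry, so the groups were far apart. Cdkn1a fell by 2.67 ± 0.22 on the log2 scale (limma, adjusted p = 3.37e-07), a level 6.2-fold lower by the ratio of means. No other construct of the chimera table was called against mCherry. C3+14 had 1788 and 1770.3 normalised reads of Cdkn1a, C1C3a 2895 and 2339, C1+14 2174 and 2121, C1C3b 1522 and 2370.2, and C1C3c 1179 and 998. C1C3c, the second lowest group, was still 1.79 ± 0.22 above FL on the log2 scale (limma, adjusted p = 1.57e-05), and no other neighbours in the order of means were called different. Its upper neighbour C3+14 was 0.71 ± 0.22 above it (limma, adjusted p = 0.0154), short only of the fold threshold. Set directly against FL, Cdkn1a was higher by 2.51 in C3+14 (limma, adjusted p = 2.66e-06) and by 3.06 in C1C3a (adjusted p = 2.33e-06). C3+14 and C1C3a are the constructs nearest to FL in the summed level of the 2-cell list given above. An antisense gene, AC167363.2, lies within Cdkn1a and reached at most 25.1 normalised reads in any library; whether counting used strand is not given in the sources used here.

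Ccng1 (chr11:40748552-40755311, minus strand), which encodes cyclin G1, had 2981 and 3446 normalised reads in FL and 9896 and 9419 in mCherry, a fall of 1.59 ± 0.20 on the log2 scale (limma, adjusted p = 1.78e-05). C1C3b was at the other end, with 18631 and 17985 normalised reads, above every other library of the table. Its difference from mCherry was 0.92 ± 0.20, under the fold threshold, and its difference from C1C3a, at 6629 and 5456, was 1.61 ± 0.20 (limma, adjusted p = 2.7e-05). Ccng1 in C3+14 (9925 and 10403), C1C3c (8665 and 10232) and C1+14 (11037 and 6231) was around the mCherry level, and the 2 libraries of C1+14 were the farthest apart.

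Trp53inp1 (chr4:11156431-11174379, plus strand), whose product promotes autophagy and cell death, followed the same order at its ends. It had 554 and 973 normalised reads in FL, 4671 and 4575 in mCherry, and 7180.0 and 7925 in C1C3b. The fall in FL was 2.65 ± 0.30 on the log2 scale (limma, adjusted p = 5.91e-06). The C1C3b libraries were both above mCherry, at a log2 fold change of 0.71 ± 0.30 that did not pass the test (adjusted p = 0.0558). C1C3a, with 2732 and 2170.2 normalised reads, was the second lowest group and was 1.73 ± 0.30 above FL (limma, adjusted p = 0.00111). C3+14 had 3260.4 and 3868, C1C3c 4228 and 4125, and C1+14 5489 and 2517. Across the 14 libraries the log2 levels of Ccng1 and Trp53inp1 correlated with Pearson's r = 0.963, the strongest pair among the members; libraries of 1 group share a construct, so this describes the pattern over 7 groups.

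The BH3-only genes Bbc3 and Pmaip1 encode PUMA and NOXA, proteins that neutralise BCL2-type survival factors, and they moved in opposite directions. Bbc3 (chr7:16308393-16318205, plus strand) had 533 and 532 normalised reads in mCherry and 453 and 337 in C1+14. In all 5 remaining constructs it was below 100 in both libraries: FL had 19.2 and 76.2, C1C3c 92 and 95.4, C1C3a 52 and 26.9, C1C3b 22.8 and 55.4, and C3+14 21.8 and 17.8. None of these libraries overlapped mCherry or C1+14. On the log2(value + 1) scale Bbc3 fell by 3.76 ± 0.55 in FL (limma, adjusted p = 5.91e-05), and its log2 fold change was -4.69 for C3+14, -3.86 for C1C3b, -3.79 for C1C3a and -2.49 for C1C3c (adjusted p = 7.75e-06 to 0.00249). The FL value rests on libraries that differ: without FL replicate 1 it fell by 2.79 and without FL replicate 2 by 4.73, and it was called either way. The C1C3b libraries differed too, and Bbc3 there fell by 3.24 without C1C3b replicate 1 and by 4.49 without replicate 2. C1+14 differed from mCherry by -0.45 ± 0.55 (limma, adjusted p = 0.601).

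Pmaip1 (chr18:66458533-66465565, plus strand) was the only member called higher in any construct than in mCherry, and it was called in all 6. It had 172 and 156 normalised reads in mCherry, 702 and 752 in C1+14, 766 and 952 in FL, 599 and 1307 in C1C3c, 2069.9 and 2088 in C1C3a, 3071 and 3051 in C3+14, and 3811 and 3501 in C1C3b. No library of a construct overlapped the mCherry libraries. Pmaip1 rose by 2.14 ± 0.25 on the log2 scale in C1+14 (limma, adjusted p = 6e-05), the construct in which the 2-cell markers summed to no more than 1.12 CPM. It rose by 2.37 ± 0.25 in FL (adjusted p = 3.76e-06) and by 2.42, 3.66, 4.21 and 4.47 in C1C3c, C1C3a, C3+14 and C1C3b, each with the same SE. FL was not the highest: Pmaip1 was higher than FL by 1.84 ± 0.25 in C3+14 (limma, adjusted p = 0.000106) and by 1.28 ± 0.25 in C1C3a (adjusted p = 0.00281). C3+14 and mCherry libraries are of the same kind by repeated sequence. Their log2 difference was 4.21 for Pmaip1 and -4.69 for Bbc3, the latter on 13 and 11 reads of Bbc3 in C3+14. The part of kind in the differences of the other constructs from mCherry was not tested.

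Bax (chr7:45461697-45466898, minus strand), the effector that opens the mitochondrial outer membrane, was called in no comparison. It had 3626 and 2713 normalised reads in FL and 3262 and 3238 in mCherry, at a log2 fold change of -0.05 ± 0.13 (limma, adjusted p = 0.763). Its lowest groups were C1C3c with 1993 and 1759.7 and C1C3b with 1949.6 and 1905. C3+14 had 2183 and 1997, C1C3a 2530.4 and 2721, and C1+14 2454 and 2506. The ratio of its highest to its lowest group mean was less than that of any other member. Of its 50-base stretches 14.0% also occur in other genes, and Gm45808, which overlaps it on the same strand, had 0 reads in every library.

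Gdf15 (chr8:70629393-70632456, minus strand), a secreted stress hormone of the TGF-beta superfamily, had 143 and 157 normalised reads in mCherry and 50.4 and 58.9 in C1+14. FL had 10.3 and 35.7, C3+14 13.4 and 8.1, C1C3a 17.7 and 5.66, C1C3b 3.51 and 4.69, and C1C3c 29.4 and 14.2. These low values are few reads: 7 and 30 in FL and 4 and 5 in C1C3b, where counting error alone is large. Gdf15 fell by 2.89 ± 0.62 in FL on the log2(value + 1) scale (limma, adjusted p = 0.00134) and was also called lower in C3+14, C1C3a, C1C3b and C1C3c, but not in C1+14 (adjusted p = 0.0977). With a pseudocount of 8 in place of 1 the Gdf15 log2 fold change was -3.09 in C3+14, -3.07 in C1C3a and -3.71 in C1C3b, in place of -3.72, -3.76 and -4.90, and after quantile normalization it was -4.47 in C3+14. Without FL replicate 1 Gdf15 fell by 2.04 and without FL replicate 2 by 3.74, and in C1C3a it fell by 4.50 without C1C3a replicate 1 and by 3.01 without replicate 2. Across the 14 libraries Gdf15 ran with Bbc3 (Pearson's r = 0.889) and against Pmaip1 (r = -0.909), over points that share constructs.

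Phlda3 (chr1:135766119-135769136, plus strand), whose product holds back AKT signalling, had 566 and 856 normalised reads in FL and 1902 and 1864 in mCherry. It fell by 1.43 ± 0.18 on the log2 scale in FL (limma, adjusted p = 1.56e-05). C3+14, at 1168 and 1087, and C1C3c, at 1208 and 1095, lay between FL and mCherry without passing the fold threshold (log2 fold changes of -0.74 and -0.71). C1C3a had 2215 and 1781, C1C3b 1442 and 1792, and C1+14 1930.4 and 1922 normalised reads. The log2 levels of Phlda3 and Cdkn1a correlated with r = 0.915 over the 14 libraries.

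**Figure D2:**
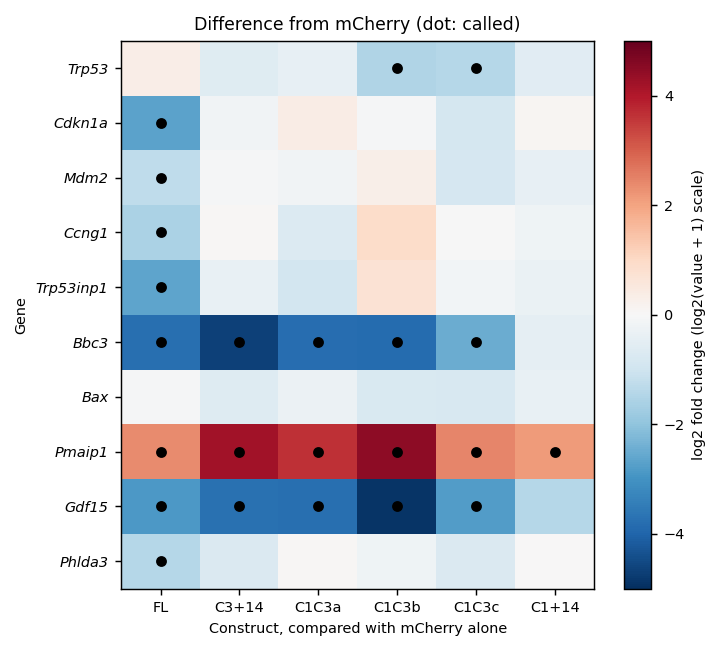
log2 fold change of each member (rows) in each construct against mCherry (columns), on the log2(normalised reads + 1) scale, with a dot where the gene was called. Bbc3 and Gdf15 are called lower in the first 5 constructs, Pmaip1 is called higher in all 6, and Cdkn1a, Mdm2, Ccng1, Trp53inp1 and Phlda3 are called lower in FL and in no other construct.

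Per kilobase of exon, the members differed widely in mCherry, with Ccng1 at 2750, Trp53 at 2437 and Bax at 2062 normalised reads per kilobase, and Pmaip1 lowest at 60.1. Pmaip1 reached 1338 per kilobase in C1C3b, while Gdf15 there was at 2.21.

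Each construct other than FL called fewer of the 10 members against mCherry. In C3+14, Pmaip1 was higher and Bbc3 and Gdf15 lower, 3 of 10 where 47.3% of all genes were called. The same 3 genes were called in C1C3a, against 46.4% of all genes. C1C3c and C1C3b each added Trp53, 4 of 10, against 28.8% and 44.7% of all genes. In C1+14 only Pmaip1 was called, 1 of 10 against 18.3% of all genes. The direction of the calls over all genes depended on scaling: 62.6% were higher in C3+14, 59% in C1C3a, 61.7% in C1C3b and 63.6% in C1C3c, but 42.4%, 41%, 47.8% and 53.6% after quantile normalization. The 10 members were not tested as a set, so these shares are given as counts beside the background only. These comparisons all share the 2 mCherry libraries, so one high or low mCherry value moves all of them.

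The differences between FL and the other constructs were tested directly. Cdkn1a and Trp53inp1 were called lower in FL than in each of the 5 other constructs, with the widest log2 differences being 3.06 for Cdkn1a in C1C3a against FL and -3.36 for Trp53inp1 in FL against C1C3b. All genes were called at 43% between FL and C1C3b, 44% between FL and C1C3c and 39.9% between FL and C1+14. Mdm2 was not called between FL and C1C3c (-0.41) or C1+14 (-0.87), Ccng1 not between C1C3a and FL (0.91), and Phlda3 not between FL and C3+14 (0.69) or C1C3c (-0.72). In C3+14 against FL, 5 of 10 members were called and all were higher in C3+14 (Cdkn1a, Mdm2, Ccng1, Trp53inp1 and Pmaip1), against 26.3% of all genes called and 16.8% higher. Both C3+14 libraries are of the kind with few reads in repeated sequence and both FL libraries of the other kind, so construct and kind cannot be told apart here. In C1C3a against FL, 5 of 10 were higher (Cdkn1a, Mdm2, Trp53inp1, Pmaip1 and Phlda3), against 15.6% of all genes called and 11% higher (70.4% of all calls higher, or 58.6% after quantile normalization). The C1C3a and FL libraries are of the same kind by repeated sequence. The call of Mdm2 in C1C3a, a log2 fold change of 1.08, was lost without C1C3a replicate 1 (0.86) and after quantile normalization (0.92). Between C1C3a and C3+14 limma called 0 of 10 members and 14.9% of all genes. At an unadjusted p under 0.05 were 5 members, beside 7749 of the 21584 genes tested. edgeR and DESeq2 also called 0 members. The members' log2 differences ran from -0.76 (Ccng1) to 0.89 (Bbc3).

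The 3 C1C3 chimeras were also set against C1+14 and against each other. C1C3a differed from C1+14 in 3 of 10 members, against 40.8% of all genes (57.5% of the calls higher, or 39.1% after quantile normalization): Pmaip1 was higher by 1.52, Bbc3 lower by a log2 fold change of -3.35 and Gdf15 lower by -2.31, the last called with C1C3a replicate 2 in the fit and not without it (-1.57; without C1C3a replicate 1 it was -3.06). C1C3b differed from C1+14 in 5 of 10 members, against 28.9% of all genes (61.9% of the calls higher, or 47.3% after quantile normalization). Pmaip1 was higher by 2.33, Ccng1 by 1.14 and Trp53inp1 by 1.02, and Bbc3 (-3.42; -2.80 and -4.04 without C1C3b replicates 1 and 2) and Gdf15 (-3.45; -2.37 with a pseudocount of 8) were lower. The calls of Ccng1 and Trp53inp1 were lost without C1+14 replicate 2, with log2 fold changes of 0.73 and 0.46, since that library was the lower of its group for both genes, and the Trp53inp1 call was also lost without C1C3b replicate 2 (0.95). Both calls were further lost after quantile normalization (0.90 for Ccng1 and 0.89 for Trp53inp1) and with edgeR (0.97 and 0.80), and that of Trp53inp1 with TMM factors (0.91) and DESeq2 (0.92). With quantile normalization or edgeR, 1 member was higher and 3 were lower in this comparison, in place of 3 and 2. C1C3c differed from C1+14 in Bbc3 alone (-2.05 ± 0.55, adjusted p = 0.0258 by limma), 1 of 10 against 7.83% of all genes, and this call was lost without any 1 of the 4 libraries (-1.84 to -2.26) and without a filter on low values (-2.05). C1C3b differed from C1C3a in 3 of 10 members, against 35.6% of all genes: Ccng1 was higher by 1.61 (2.23 after quantile normalization), Trp53inp1 higher by 1.63 and Trp53 lower by a log2 fold change of -1.06. The Trp53 call was lost without C1C3b replicate 2 (-0.92), after quantile normalization (-0.52), with TMM factors (-0.96) and with edgeR (-0.96).

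**Figure D3:**
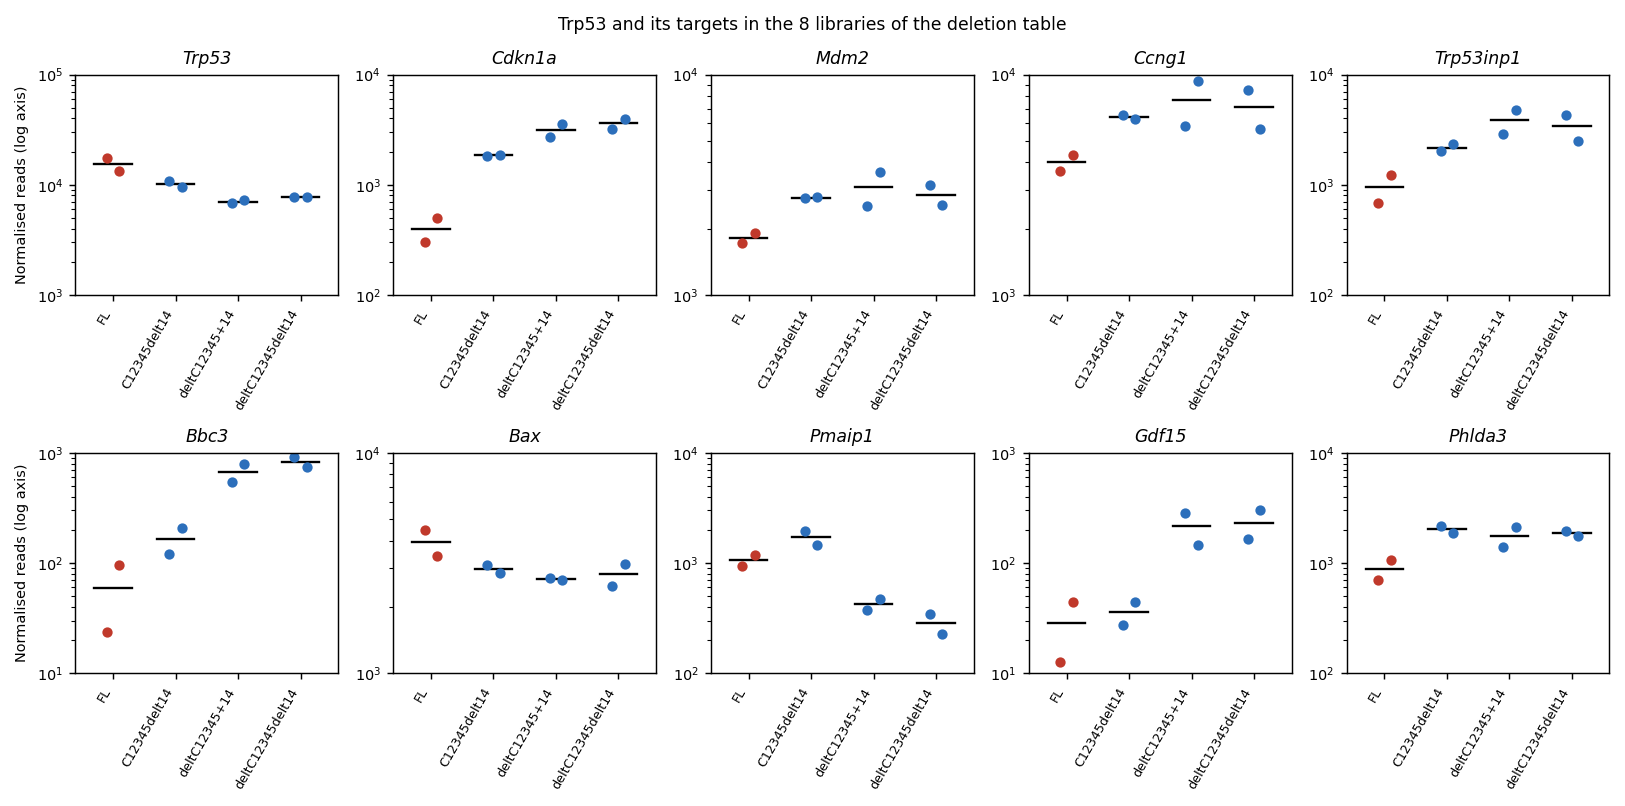
Normalised reads (log axis) of Trp53 and its 9 targets in the 8 libraries of the deletion table; each point is 1 library and each line a group mean. The FL libraries are the lowest for Cdkn1a, Mdm2, Ccng1, Trp53inp1, Bbc3 and Phlda3, and both deltC12345 constructs are the lowest for Pmaip1.

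The deletion table asks what the C12345 and 14 parts add to FL. Its values are scaled separately from those above, so the same FL libraries have other normalised values here, and no mCherry library is in this table. With C12345 removed, most members moved away from FL: 7 of 10 were called in deltC12345+14 (5 higher and 2 lower, against 38.4% of all genes) and 6 of 10 in deltC12345delt14 (5 higher and 1 lower, against 39.1%). Over all genes, 18.4% were higher and 20% lower in the former and 18.8% higher and 20.3% lower in the latter. The share of calls that were higher was 47.9% and 48.1%, and 63.6% and 63.3% after quantile normalization. With 14 removed, only Cdkn1a was called, 1 of 10 against 0.958% of all genes (35.3% of the calls higher, or 47.2% after quantile normalization). These 3 comparisons share the FL libraries.

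Cdkn1a had 303 and 494 normalised reads in FL, 1836 and 1857 in C12345delt14, 2699 and 3536 in deltC12345+14, and 3218 and 3972 in deltC12345delt14. Every library of the deletion constructs was above both FL libraries. Cdkn1a was higher than in FL by 2.25 ± 0.25 in C12345delt14 (limma, adjusted p = 0.0294), by 2.99 ± 0.25 in deltC12345+14 (adjusted p = 7.58e-05) and by 3.20 ± 0.25 in deltC12345delt14 (adjusted p = 4.78e-05). The C12345delt14 call was lost when any 1 of FL replicate 1 (1.90), C12345delt14 replicate 1 (2.26) or C12345delt14 replicate 2 (2.24) was left out; each of these fits called 0 genes in all, so the size of the difference held while the adjusted p did not. C12345delt14 lay below deltC12345delt14 by 0.95 ± 0.25 on the log2 scale (adjusted p = 0.0236 by limma, under the fold threshold).

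Bbc3 had 23.6 and 95.3 normalised reads in FL, 121 and 206 in C12345delt14, 541 and 795 in deltC12345+14, and 909.5 and 742 in deltC12345delt14. It was higher than in FL by 3.76 ± 0.59 in deltC12345+14 (limma, adjusted p = 0.00157) and by 4.08 ± 0.59 in deltC12345delt14 (adjusted p = 0.00107), while the value of 1.71 ± 0.59 in C12345delt14 did not pass the test (adjusted p = 0.134). Gdf15 behaved alike, with 12.7 and 44.7 normalised reads in FL, 27.4 and 44.3 in C12345delt14, 284 and 146 in deltC12345+14, and 164 and 301 in deltC12345delt14. Its log2 fold changes against FL were 3.03 ± 0.64 in deltC12345+14 (adjusted p = 0.0057) and 3.16 ± 0.64 in deltC12345delt14 (adjusted p = 0.00463 by limma). Both genes depend on which FL library is used: without FL replicate 1 the differences in deltC12345+14 and deltC12345delt14 were 2.77 and 3.09 for Bbc3 and 2.16 and 2.29 for Gdf15, and without FL replicate 2 they were 4.74 and 5.07 for Bbc3 and 3.90 and 4.03 for Gdf15, all called. Within both deltC12345 groups the library with more reads in repeated sequence had the higher Gdf15, by 0.96 and 0.87 on the log2 scale.

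Pmaip1 moved the other way. It had 942 and 1191 normalised reads in FL, 1943 and 1468 in C12345delt14, 372 and 476 in deltC12345+14, and 346 and 228 in deltC12345delt14, with no overlap between any pair of groups. Pmaip1 fell relative to FL by 1.33 ± 0.26 in deltC12345+14 (limma, adjusted p = 0.00412) and by 1.91 ± 0.26 in deltC12345delt14 (adjusted p = 0.000854), and in C12345delt14 it was at a log2 fold change of 0.67 ± 0.26 (adjusted p = 0.166).

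Trp53inp1 had 681 and 1217 normalised reads in FL, 2018 and 2324 in C12345delt14, 2891 and 4809 in deltC12345+14, and 4284 and 2494 in deltC12345delt14. It was higher than in FL by 2.03 ± 0.36 in deltC12345+14 and by 1.84 ± 0.36 in deltC12345delt14 (limma, adjusted p = 0.00281 and 0.00415). In each of those groups the library with more reads in repeated sequence was the lower one. Phlda3 had 696 and 1071 in FL, 2186 and 1889.9 in C12345delt14, 1406 and 2129.6 in deltC12345+14, and 1949.6 and 1756 in deltC12345delt14. Its differences from FL, 1.00 ± 0.26 in deltC12345+14 and 1.10 ± 0.26 in deltC12345delt14 (limma, adjusted p = 0.0127 and 0.00847), lie at the fold threshold. Without FL replicate 1 they were 0.69 and 0.79 and no longer called, and the former was also lost without deltC12345+14 replicate 2 (0.70). With library kind as a term in the fit both calls were lost too (0.82 and 0.91). The deltC12345+14 call was lost as well among the libraries rich in repeated sequence alone (0.70), with DESeq2 (0.995) and with a pseudocount of 8 (0.997).

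Trp53 had 17501 and 13225 normalised reads in FL, 10787 and 9537 in C12345delt14, 6761 and 7294 in deltC12345+14, and 7730.2 and 7685 in deltC12345delt14. It fell by 1.12 ± 0.16 in deltC12345+14 (limma, adjusted p = 0.00112), a call lost without FL replicate 1 (-0.91), with TMM factors (-0.99) and after quantile normalization, where the difference was -0.21 (adjusted p = 0.221). It was at -0.98 ± 0.16 in deltC12345delt14 (adjusted p = 0.00173), just under the fold threshold. Mdm2 had 1719.7 and 1915 in FL and 2527 to 3626 in the 6 other libraries of the table, and Ccng1 3666 and 4311 in FL and 5640.1 to 9391 elsewhere. Neither gene was called in any of the 3 constructs, with log2 fold changes of 0.60 to 0.74 for Mdm2 and 0.69 to 0.90 for Ccng1, although no library overlapped FL. Bax had 4459.6 and 3393 in FL and 2487 to 3139 elsewhere, at log2 fold changes of -0.39 to -0.54, none called.

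C12345delt14 and deltC12345delt14, which both lack 14, differed in 3 of 10 members, against 22% of all genes (57.3% of the calls higher, or 39.2% after quantile normalization). Pmaip1 was higher in C12345delt14 by 2.58 ± 0.26 (limma, adjusted p = 0.000325), and Bbc3 (-2.37 ± 0.59, adjusted p = 0.0202) and Gdf15 (-2.64 ± 0.64, adjusted p = 0.0189) were lower. The Bbc3 call was lost without C12345delt14 replicate 1 (-1.99) or without either deltC12345delt14 library (-2.22 and -2.52, the former also the value among libraries rich in repeated sequence alone), and the Gdf15 call without either C12345delt14 library (-2.30 and -2.97) or deltC12345delt14 replicate 2 (-2.20). Between deltC12345+14 and deltC12345delt14 limma called 0 of 10 members and 0% of all genes, with 0 members and 543 genes at an unadjusted p under 0.05. edgeR called 0 genes and DESeq2 3, none of them a member. The members' log2 differences there ran from -0.32 (Bbc3) to 0.58 (Pmaip1), and each of these groups holds 1 library of either kind.

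Whether removing 14 had another effect with C12345 than without it was tested as an interaction. limma called 0 of 10 members and 0% of all genes, with 6 members and 2748 genes at an unadjusted p under 0.05, edgeR called 0 genes, and DESeq2 called 150, Cdkn1a among them at -2.00. The limma value for Cdkn1a was -2.04 ± 0.35 (adjusted p = 0.268). A difference between these effects is therefore not shown for the members by the limma fit.

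Library kind moved with construct, and its values for the members can be read where 1 construct has both kinds. In deltC12345+14 and deltC12345delt14, the library with more reads in repeated sequence differed from the other by -0.39 and 0.30 on the log2 scale for Cdkn1a, -0.52 and -0.29 for Mdm2, -0.68 and -0.60 for Ccng1, -0.73 and -0.78 for Trp53inp1, and -0.60 and -0.15 for Phlda3. The corresponding values were -0.56 and -0.29 for Bbc3 and -0.36 and -0.60 for Pmaip1. For Gdf15 they were 0.96 and 0.87, for Bax 0.04 and 0.34, and for Trp53 -0.11 and -0.01. These are single libraries. With library kind as a term in the fit of the deletion table, 15 member calls were kept and 2 were lost, those of Phlda3 against FL. The part of kind in the calls of FL against mCherry was not tested.

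Other genes of the pathway were taken from lists that do not contain the members. Of 32 other p53 targets, 18 fell and 0 rose in FL against mCherry, where 19.6% of all genes were lower and 24.5% higher, with a median log2 fold change of -1.03 against 0.09 for all genes. Trp73, which encodes the p53 relative p73, fell from 318 ± 13.8 (SD, n = 2) in mCherry to 13.04 ± 1.77 normalised reads in FL. Plk3, a stress-responsive kinase, fell from 491 ± 10.9 to 59.6 ± 13.6. Perp, a membrane protein of desmosomes linked to p53-dependent apoptosis, fell from 1252 ± 103 to 175 ± 57.0. All 3 were also called lower in each of the other 5 constructs. Over the whole list, 10 fell and 2 rose in C3+14 (17.7% of all genes lower and 29.6% higher), and 11 fell and 1 rose in C1C3a (19% and 27.4%). In C1C3b 9 fell and 7 rose (17.1% and 27.6%), in C1C3c 13 and 3 (10.5% and 18.3%), and in C1+14 4 and 2 (5.95% and 12.4%).

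Of 18 regulators of p53, 2 fell and 1 rose in FL, 3 of 18 where 44.2% of all genes were called, with a median of -0.28. Mdm4, which encodes a partner of Mdm2 that restrains p53, fell from 5604 ± 137 to 850 ± 401 normalised reads, at a log2 fold change of -2.81 ± 0.27 (limma, adjusted p = 1.49e-06). Mdm4 was also called lower in the other 5 constructs, where the log2 fold change was -3.03 for C1C3a, -2.33 for C3+14, -2.02 for C1C3b, -1.10 for C1+14 and -1.02 for C1C3c. Sirt1, a deacetylase that acts on p53, fell from 1347 ± 168 to 355 ± 16.5. Cdkn2a, the locus of p16INK4a and of the Mdm2 inhibitor p19ARF, rose from 277 ± 6.74 to 669 ± 18.7, at a log2 fold change of 1.27 ± 0.19 (limma, adjusted p = 6.15e-05), and was called in no other construct against mCherry.

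Of 12 further genes of the BCL2 family, 6 fell and 0 rose in FL, against 19.6% of all genes lower and 24.5% higher. Bid, a BH3-only activator of BAX, fell from 1370 ± 25.2 to 183 ± 26.6 normalised reads and was called lower in all 6 constructs. Bcl2l1, which encodes the survival factor BCL-XL, fell from 1172 ± 55.9 to 200 ± 29.2. Bcl2l11, which encodes the BH3-only protein BIM, fell by 1.51 ± 0.22 on the log2 scale in FL but rose by 2.03 in C1C3b and by 1.25 in C1C3c (limma, adjusted p = 4.73e-06 and 0.000528). The genes that fell in FL included both survival and death genes of the family.

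Of 9 genes of the integrated stress response, a translation-control pathway also known to act on Gdf15 and Pmaip1, 4 fell and 2 rose in FL, against 19.6% of all genes lower and 24.5% higher. Atf4, its central transcription factor, fell from 5727 ± 76.2 to 857 ± 26.7 normalised reads. The mean of Atf4 was below mCherry in every other construct as well, from 787 in C1C3b to 1797 in C1C3a. Trib3 fell by 3.08 ± 0.39 and Ddit3 by 1.43 ± 0.27, while Asns, asparagine synthetase, rose by 1.19 ± 0.14 and Slc7a11, a cystine transporter, by 1.07 ± 0.29 on the log2 scale (limma, adjusted p = 1.17e-05 and 0.00559 for the latter pair). Mean Asns was 49760 in C3+14 and 38734 in C1C3a, above its 25777 in FL, and 10384 to 16040 in C1C3b, C1C3c and C1+14.

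**Figure D4:**
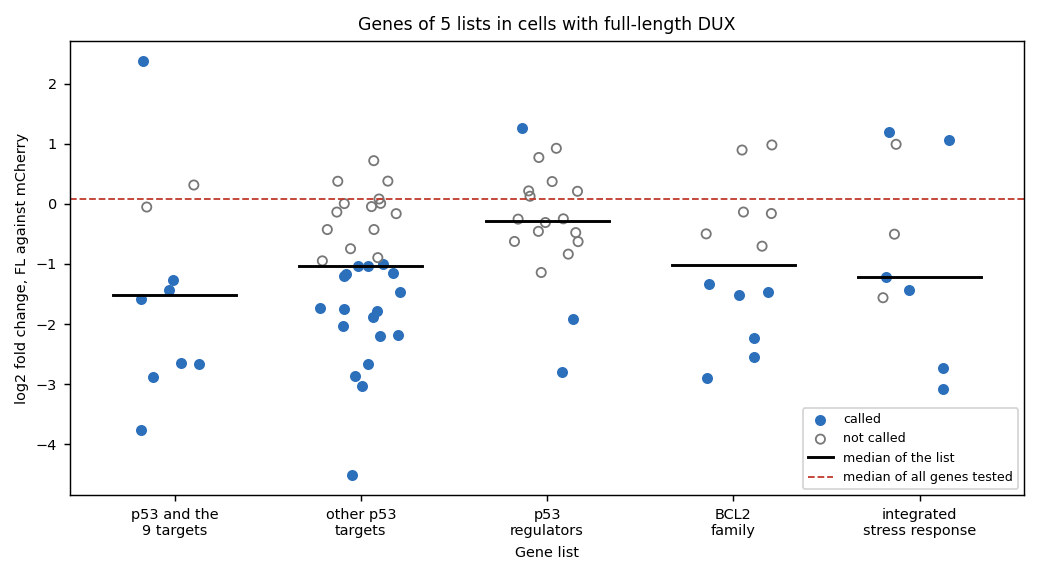
log2 fold change of FL against mCherry for each gene of 5 lists, filled where the gene was called; the black line is the median of a list and the dashed line the median of all genes tested. The medians are -1.51 for Trp53 and its 9 targets, -1.03 for other p53 targets, -0.28 for regulators, -1.01 for the BCL2 family and -1.22 for the integrated stress response, and Pmaip1 is the highest point.

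Of the embryonic stem cell markers, 6 of 10 fell in FL too (19.6% of all genes lower), and their summed level was 1565 to 2514 CPM in FL against 5315 to 5404 in mCherry. Sox2 fell from 4914 ± 67.4 to 751 ± 408 normalised reads and Esrrb from 13675 ± 292 to 2451 ± 594. In C1C3b, 7 of 10 of these markers fell against mCherry (17.1% of all genes lower), while the median log2 fold change of the members there was -0.15. The part of the stem cell marker shift in the members' values was not tested.

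Over the 14 libraries of the chimera table, the genes with the pattern most like Trp53 were Timp1 (Pearson's r = 0.978) and Rfc5 (r = 0.976) among 13517 candidates with a mean of at least 50 normalised reads. Those most like Cdkn1a were 1700017B05Rik (r = 0.959) and Pnrc1 (r = 0.948), and those most like Mdm2 were Slc19a2 (r = 0.968) and Ppm1d (r = 0.952), the last a phosphatase that is itself known as a p53 target. These libraries share constructs within each group, so the values are a description.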

How the data were processed

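The deposited values are a signal, gene read counts scaled by a size factor for each library, in 2 tables that the authors scaled separately, per the file headers and the values; DESeq2, Trim Galore 0.5.0, FastQC and the build mm10 are named in the submitters' processing notes, and the aligner, counter and multi-read handling are not given in the sources used here. Every value above 0 was a whole number of reads (100% within 0.01 reads), 1 read being worth 0.620 to 1.81 normalised reads, so reads were recovered for count tests. Library totals were 21059953 to 40448890 reads. Since the reads carry no molecular identifiers they are not independent molecules, and counts and the floor of 3 reads cover counting error only. Replicates differed beyond sampling noise (chi-square per gene from 3.55 in mCherry to 89.1 in FL) and were all kept. The pooled SE of a comparison is therefore not the spread of its own libraries alone. The FL libraries hold the same reads in both tables (0 genes differ). The series lists 22 samples in 11 groups; C3delt14 was not analysed here.

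Symbols for 55227 identifiers (99.5%) and the coordinates of genes come from GENCODE M21 (GRCm38), and promoter windows from RefSeq (GRCm38.p6). limma 3.58.1 (R 4.3.3; lmFit, eBayes with trend) was fitted on log2(value + 1), which understates the change of low genes, to genes that reached 10 normalised reads in 2 or more libraries (21584 genes for the chimeras and 19833 for the deletions), with all groups of a table sharing 1 estimate of the spread. p-values were adjusted by Benjamini-Hochberg over each table, per comparison. edgeR 4.0.16 and DESeq2 1.42.0 on the recovered reads were alternatives: for FL against mCherry they called 9502 and 8994 genes, against 9531 by limma. The fit was also run on simulated data. Their spread was set by a formula and not taken from these libraries, so that run is not used to back any call.

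The members and lists were chosen with earlier results of these data known, and no list was tested as a set. Named genes are all 10 members, up to 3 genes higher and 3 lower in FL against mCherry from each other list (largest change, higher group averaging 50 or more, libraries not overlapping; not all are printed), and the 2 genes most like Trp53, Cdkn1a and Mdm2 by Pearson's r.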

Additional observations from a re-analysis of the deposited data

How the results depend on the processing

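Of 964 values of the 62 called member differences under another setting, 922 stayed called in the same direction, 42 were no longer called and none reversed. Counts of members called moved by over 1.5 times in these cases. For C1C3a, quantile normalization called 6 members against mCherry (3 in the fit reported) and 5 against C1+14 (3). For C1+14 against mCherry, a pseudocount of 8, edgeR, DESeq2 and a fit of the 2 groups alone each called 2 (1). For C1C3b against C1+14, leaving out 1 library gave 3 to 6 (5). For C1C3c against C1+14 (1), no filter on low values gave 0, quantile normalization, TMM factors and edgeR 2 each, and leaving out 1 library 0 to 2. For C12345delt14 against FL (1), a pseudocount of 8, edgeR and the high-share libraries alone gave 2 each, a fit of the 2 groups alone and library kind as a term 3 each, DESeq2 4, and leaving out 1 library 0 to 3. For C12345delt14 against deltC12345delt14 (3), leaving out 1 library gave 1 to 2, and for the interaction (0) DESeq2 gave 1. Fewer libraries are the construction of the leave-one-out fits; the cause of the other shifts was not tested.

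Counts over all genes moved most for C12345delt14 against FL: 190 as reported, 30 with a pseudocount of 0.1 or without a filter, 467 with edgeR, 1293 with DESeq2, between 30 and 1293 under the other settings, and 0 to 1293 without 1 library. For C1C3c against C1+14 (1690) the 2 groups alone gave 461 and leaving out 1 library down to 548; for C1C3a against C3+14 (3215) a minimum of 50 gave 2101 and leaving out 1 library down to 1749; for C1+14 against mCherry (3953) and C12345delt14 against deltC12345delt14 (4365), leaving out 1 library gave down to 2581 and 1869. Quantile normalization shifted the median log2 change of all genes from 0.09 to -0.27 in FL, 0.23 to -0.25 in C3+14, 0.12 to -0.32 in C1C3a and 0.15 to -0.13 in C1C3b against mCherry, and from -0.08 to 0.23 in deltC12345+14 and -0.11 to 0.21 in deltC12345delt14 against FL.

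Correlations of the deviations of same-numbered replicates ran from -0.10 to 0.14, apart from -0.57 for deltC12345+14 with deltC12345delt14. In that pair of groups the same number falls on libraries of opposite kind by repeated sequence. The part of kind in that value was not tested. The numbers were not used as a pairing in the fit reported. With the replicate number as a block, all 62 member calls were kept, with 8 members called for FL against mCherry, and C12345delt14 against FL called 45 genes in place of 190. With the numbers of deltC12345+14 and deltC12345delt14 crossed in the block, 0 members and 0 genes were called. The libraries chosen by their share of repeated sequence and the crossed block were added after seeing the data. Depth limits Gdf15 and Bbc3 most, at 4 to 39 reads of Gdf15 in FL, C3+14 and the C1C3 constructs.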
